A study of Mus musculus with 9 samples.

Results

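Gene expression was compared between 3 mouse osteosarcoma cell lines and 3 cultures of undifferentiated Kusa4b10 cells, a mouse bone marrow stromal line that stands for the pre-osteoblast. These are 6 of the 9 arrays of a study of osteosarcoma and osteoblast differentiation, and were chosen by their labels; the other 3 arrays, of differentiated Kusa4b10 cells, entered only 1 alternative fit. The osteosarcoma lines, called lines 1, 2 and 3 here, came from tumours of adult C57BL/6 mice of genotype Osx-Cre p53fl/fl Rbfl/fl, and 1 array was made from each. Cre recombinase under the Osx (osterix) promoter is active in the osteoblast lineage and removes the floxed alleles of p53 and Rb there, and the labels call the lines fibroblastic. They were proliferating, subconfluent and at an early passage. For the Kusa4b10 cultures the labels name only the line and its undifferentiated state, with no genotype, strain, age or sex. They are described as independent samples and are all of 1 line, so their spread is that of cultures and not of animals. Tumour state, the engineered genotype, line of origin and culture history therefore cannot be told apart. All single-symbol genes of the array were members of the comparison, 19938 in all, each represented by its brightest probe set.

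Osteosarcoma is a malignant tumour of cells that make bone matrix, and loss of p53 and RB pathway function is common in it. RB holds back the E2F factors that switch on replication genes, and p53 activates genes of cell cycle arrest, DNA repair and cell death. A pre-osteoblast is a committed but immature cell that already makes collagen and has yet to deposit mineral.

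All values are log2 expression levels, so a difference of 1 is 2-fold, and differences are osteosarcoma minus pre-osteoblast with the standard error of the fit. A gene was called at a limma adjusted p below 0.05. The arrays of a group resembled each other more than those of the other group: correlations across genes were 0.982 to 0.987 among the lines, 0.994 to 0.997 among the cultures and 0.959 to 0.969 between them. Line 3 went against its label. The labels give lines 1 and 3 as female and line 2 as male. Xist, the RNA of the inactive X chromosome, was at 12.71 in line 1 and at 5.27 and 5.56 in lines 2 and 3. The Y-linked gene Eif2s3y was at 3.91, 9.88 and 10.06, Uty at 4.82, 9.51 and 9.80, and Kdm5d at 5.12, 8.74 and 8.76. The line labelled female and numbered 3 therefore had the Y-linked transcripts of the male line and Xist at a similarly low level. The Kusa4b10 cultures had neither pattern, with Xist at 5.36 to 5.56 and Eif2s3y at 3.95 to 4.08. Counts and calls that changed without line 3, counts by more than 1.5 times, are given without it as well.

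Of the genes tested, 3566 (17.9%) were called, 1447 (7.26%) higher and 2119 (10.6%) lower in the osteosarcoma lines. At least 2-fold differences were found for 360 higher (1.81%) and 423 lower (2.12%) genes. The groups did not overlap for 35.6% of all genes. The median difference over all genes was -0.02. The counts depended on which array was left out. Without line 1 they were 994 higher and 1435 lower, without line 2 1462 and 2044, and without line 3 1481 and 1791. Without pre-osteoblast culture 1, 2 or 3 the higher counts were 854, 741 and 553 and the lower counts 1116, 1210 and 1031. There were 1418 genes (7.11%) that kept the call in all 6 of these fits, 532 higher (2.67%) and 886 lower (4.44%), and 100 of the 125 called genes named here and in the closing observations are among them.

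**Figure D1:**
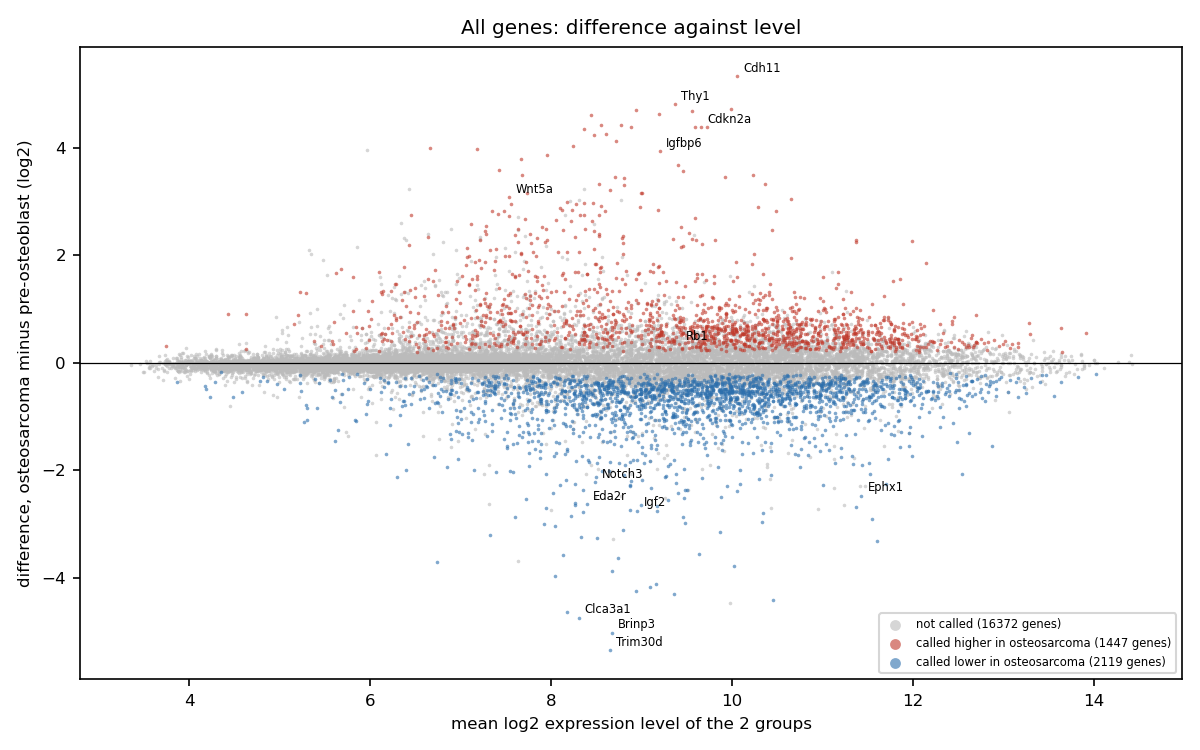
Each point is a gene, with its mean log2 level in the 2 groups on the horizontal axis and the difference, osteosarcoma minus pre-osteoblast in log2, on the vertical axis; red and blue points were called higher and lower. The largest rise was that of Cdh11 (5.34) and the largest fall that of Trim30d (-5.35), and Rb1 lay near the line of no difference.

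Cdh11, Thy1 and Cdkn2a marked the lines. Cdh11, cadherin-11, the adhesion molecule of mesenchymal and osteoblastic cells, was at 12.75, 12.32 and 13.12 in lines 1, 2 and 3 and at 7.34, 7.33 and 7.51 in the pre-osteoblast cultures. The groups did not approach each other, and the difference of 5.34 ± 0.20 (40.5-fold, adjusted p = 0.000446) was the largest rise. Thy1, the surface protein CD90 of fibroblasts and stromal stem cells, was at 11.95, 11.00 and 12.39 in the lines against 7.07, 6.79 and 7.02 (4.82 ± 0.35, 28.3-fold, adjusted p = 0.00169). Cdkn2a, which encodes the CDK4 and CDK6 inhibitor p16Ink4a and the Mdm2 inhibitor p19Arf, was at 11.79, 11.46 and 12.28 against 7.55, 7.41 and 7.44 (4.38 ± 0.21, 20.8-fold, adjusted p = 0.000761). All 3 calls held when any 1 array was left out. In the cultures each of these genes lay below the median gene level of 7.96.

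The other largest rises were genes of the cell surface, the basement membrane and the extracellular space; like the largest falls, they were taken from called genes in which the groups did not overlap. Emb, embigin, a membrane partner of lactate transporters, was at 12.64, 11.43 and 12.98 against 7.96, 7.41 and 7.50 (4.72 ± 0.42, 26.4-fold). Gpx3, the secreted glutathione peroxidase, was at 12.34, 10.41 and 11.14 against 6.39, 6.57 and 6.80 (4.71 ± 0.48). Serping1, the C1 inhibitor of the complement cascade, was at 12.48, 10.68 and 12.54 against 8.11, 6.61 and 6.91 (4.69 ± 0.63). In these 3 genes line 2 was the lowest of the lines, as it was for 10 of the 12 largest rises.

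Slit2, a secreted guidance cue that signals through Robo receptors, was higher by 4.63 ± 0.26 and Tmem45a, a membrane protein, by 4.61 ± 0.45. Lama4, the laminin alpha4 chain of vascular and stromal basement membranes, was at 11.50, 9.30 and 11.51 against 6.25, 6.34 and 6.42 (4.43 ± 0.61). The elastic microfibril component Mfap5 rose by 4.39 ± 0.59 and the transmembrane protein gene Plxdc2 by 4.43 ± 0.38. Cd34, a sialomucin of haematopoietic, endothelial and some stromal progenitors, was at 12.28, 12.36 and 11.12 against 7.30, 7.46 and 7.86 (4.38 ± 0.36, 20.9-fold). Arhgdib, a gene best known from blood cells, was at 11.44, 10.98 and 10.81 against 7.05, 6.50 and 6.55 (4.38 ± 0.22). The markers of blood cells did not move with Cd34 and Arhgdib: 0 of 15 haematopoietic and macrophage markers were called in either direction, against 17.9% of all genes. No group mean among them exceeded 8.22. Of 13 endothelial markers 0 were called higher and 1 lower (7.69%, against 10.6% of all genes), a call lost without culture 3, with no group mean above 8.49.

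The largest falls began with Trim30d and its neighbour Trim30a, interferon-induced members of the tripartite motif family. Trim30d was at 6.80, 6.28 and 4.84 in the lines and at 11.46, 10.98 and 11.54 in the cultures (-5.35 ± 0.51, 40.8-fold lower, adjusted p = 0.00286). Trim30a was at 10.14, 7.87 and 6.74 against 12.81, 12.42 and 12.77 (-4.41 ± 0.83, adjusted p = 0.0194), and its call was lost without pre-osteoblast culture 1, 2 or 3 (adjusted p = 0.0756, 0.0668 and 0.081). The genes are near-copies, as are Clca3a1 and Clca3a2, so probes may share signal between the members of each pair. Clca3a1, of a family of secreted chloride channel regulators, was at 6.20, 5.95 and 5.66 against 10.56, 10.59 and 10.87 (-4.74 ± 0.16), and Clca3a2 differed by -3.88 ± 0.24.

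Brinp3, a gene of the nervous system that inhibits the cell cycle, was at 5.94, 6.41 and 6.13 in the lines and at 11.19, 11.08 and 11.28 in the cultures (-5.02 ± 0.13, 32.5-fold lower, adjusted p = 0.00021). Grik2, a kainate glutamate receptor subunit, differed by -3.96 ± 0.16. Sprr1a, a cornified envelope precursor of squamous epithelium, was at 7.14, 7.21 and 7.29 against 10.79, 12.21 and 11.54 (-4.30 ± 0.34). The epithelial and muscle adhesion gene Bves was at -4.25 ± 0.43 and the adhesion receptor gene Adgrf5 at -4.17 ± 0.35. Cd80, the co-stimulatory ligand of T cells, was at 8.03, 6.84 and 6.44 against 11.15, 11.25 and 11.26 (-4.11 ± 0.40). The serpin gene Serpinb6b differed by -3.78 ± 0.48 and the cytochrome P450 gene Cyp2f2 by -3.64 ± 0.37. Of the largest rises and falls, 23 of the 24 kept their call without any 1 array, Trim30a being the exception.

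**Figure D2:**
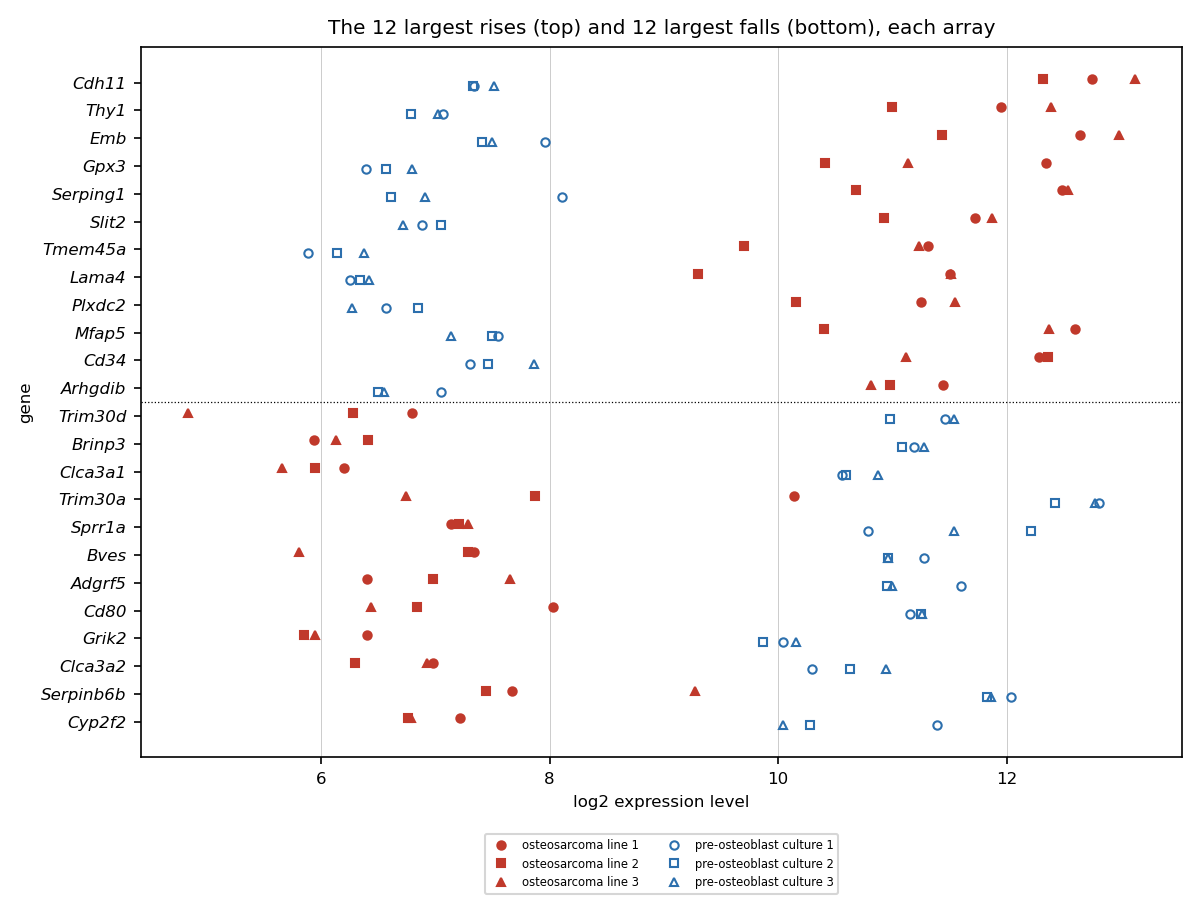
The 12 largest rises (upper block) and the 12 largest falls (lower block), with the log2 expression level on the horizontal axis, filled symbols for the 3 osteosarcoma lines and open symbols for the 3 pre-osteoblast cultures. The spread within a group differs between genes: the cultures lie close together for Brinp3, at 11.08 to 11.28, and further apart for Sprr1a, at 10.79 to 12.21, where the lines lie at 7.14 to 7.29, while for Lama4 the lines lie at 9.30 to 11.51.

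Among the regulators that act through RB and p53, 2 of the 4 INK4 inhibitors were called, Cdkn2a and Cdkn2b. Cdkn2b, which encodes p15Ink4b and lies beside Cdkn2a, was at 10.06, 10.60 and 10.45 in the lines and at 9.46, 9.18 and 9.37 in the cultures (1.03 ± 0.15, 2.05-fold, adjusted p = 0.00969). The other INK4 genes, Cdkn2c (0.07 ± 0.10, adjusted p = 0.703) and Cdkn2d (0.24 ± 0.11, adjusted p = 0.207), did not pass. No other gene was called among 14 cyclins, CDKs and INK4 inhibitors, so 14.3% of that list were higher, against 7.26% of all genes. Of these 2 genes Cdkn2a is a marker of this comparison, so the share is no separate result on the list. The cyclin gene Ccnd1, at 12.07, 12.07 and 11.43 against 12.07, 12.36 and 12.23, did not pass (adjusted p = 0.27), nor did its kinase partner Cdk4 (-0.07 ± 0.05, adjusted p = 0.439).

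Rb1 was at 9.26, 9.67 and 9.85 against 9.28, 9.28 and 9.17 (0.35 ± 0.15, adjusted p = 0.193), and without line 1 it passed (adjusted p = 0.0268). Whether its probes lie inside the deleted part is not known here, and its level is no check of the genotype. Of 17 genes of the RB and p53 families with the Mdm genes, 3 were lower (17.6%, against 10.6% of all genes) and 1 higher (5.88%, against 7.26%). Rbl2, which encodes the RB relative p130, was at 9.51, 9.47 and 9.47 against 10.10, 10.00 and 10.00 (-0.55 ± 0.05, adjusted p = 0.00323). Trp63, the p53 relative of stratified epithelium, was at 7.99, 7.95 and 8.32 against 10.14, 9.90 and 9.83 (-1.87 ± 0.13, 3.66-fold lower, adjusted p = 0.00157). Mdm2, the ubiquitin ligase of p53 and itself a p53 target, was at 12.14 in line 1 and at 10.22 and 9.92 in lines 2 and 3, with the cultures between them at 11.01, 11.20 and 11.09. The groups overlapped for Mdm2 and the difference of -0.34 ± 0.58 did not pass, although without line 1 it was called lower (adjusted p = 0.0143), and without line 3 it was 0.08. The single rise of this list was lost without line 2 or any 1 culture, and 2 were higher without line 1.

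Of 38 measured p53 target genes, 15 were lower and 2 higher, against 10.6% and 7.26% of all genes, and their median difference was -0.20. Eda2r, a death receptor of the TNF receptor family, was at 7.80, 6.86 and 6.58 in the lines and at 9.59, 9.81 and 9.73 in the cultures (-2.63 ± 0.31, 6.19-fold lower, adjusted p = 0.00503). Ephx1, a detoxifying epoxide hydrolase, was at 10.61, 10.03 and 9.94 against 12.67, 12.68 and 12.65 (-2.47 ± 0.18, adjusted p = 0.00169). Psrc1, a spindle-associated protein gene, was at 9.54, 9.35 and 9.40 against 10.83, 11.13 and 10.81 (-1.49 ± 0.11). In all of these the lines lay below the cultures.

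The tetraspanin gene Cd82, a metastasis suppressor, differed by -1.28 ± 0.20, the exonuclease gene Aen by -1.03 ± 0.12, the death receptor gene Tnfrsf10b by -0.78 ± 0.12 and cyclin G1, Ccng1, by -0.62 ± 0.07. Ccng1 was at 12.74, 12.57 and 12.51 against 13.23, 13.25 and 13.21 (adjusted p = 0.00486), with every line below every culture. The 7 genes Eda2r, Ephx1, Psrc1, Cd82, Aen, Tnfrsf10b and Ccng1 were called without any 1 array. The number called lower was 12, 14 and 11 without lines 1, 2 and 3 and 8, 7 and 7 without cultures 1, 2 and 3. The death receptor Fas was not called (-0.57 ± 0.48, adjusted p = 0.488).

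Both p53 targets called higher act in stress responses. Plk2, polo-like kinase 2, was at 10.76, 10.30 and 10.41 in the lines and at 9.49, 9.22 and 9.42 in the cultures (1.11 ± 0.14, adjusted p = 0.00593). Gadd45a, a DNA damage response gene, was at 8.73, 8.50 and 9.08 against 8.01, 7.71 and 7.70 (0.97 ± 0.17, adjusted p = 0.0153), and was not called without line 1 (adjusted p = 0.0515), culture 2 (0.0641) or culture 3 (0.0715), or with all 9 arrays in the fit (0.0723).

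The promoters of p53 targets were searched for the p53 half-site, the motif that is repeated in a p53 response element, on both strands of the 250 bases before the transcription start. It was found for 7.4% of all 15614 tested genes with a RefSeq promoter, for 9 of 30 p53 targets (30%) and for 3 of the 12 that were called lower (25%). Ccng1 and Aen are shown as members that fell in every fit and hold the motif, which is in capitals. The sequences are from RefSeq, build GRCm38.p6, at chr11:40755287-40755536 on the minus strand and chr7:78895808-78896057 on the plus strand, written 5′ to 3′ along the gene.
Ccng1: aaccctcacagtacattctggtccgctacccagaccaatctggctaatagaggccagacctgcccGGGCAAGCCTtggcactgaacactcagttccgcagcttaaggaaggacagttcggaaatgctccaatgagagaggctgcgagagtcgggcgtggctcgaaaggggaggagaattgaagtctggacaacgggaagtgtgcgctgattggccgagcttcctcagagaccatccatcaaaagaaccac
Aen: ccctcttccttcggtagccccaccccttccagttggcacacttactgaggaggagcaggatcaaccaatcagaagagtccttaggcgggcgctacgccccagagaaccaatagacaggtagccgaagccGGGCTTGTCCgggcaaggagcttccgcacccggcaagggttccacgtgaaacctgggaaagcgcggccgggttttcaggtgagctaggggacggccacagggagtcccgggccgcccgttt
The first base of the motif lies 185 bases before the start of Ccng1 and 121 before that of Aen. Binding was not measured.

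Few genes of replication and mitosis were called. Of 47 E2F targets and DNA replication genes, 4 were called higher (8.51%, against 7.26% of all genes) and 0 lower, and the median difference was 0.41 against -0.02 for all genes. Slbp, the histone mRNA binding protein, was at 10.54, 10.85 and 10.41 in the lines and at 9.27, 9.76 and 9.64 in the cultures (1.04 ± 0.17, adjusted p = 0.0121, and 0.0505 without culture 3). Tyms, thymidylate synthase, was at 11.41, 11.73 and 11.44 against 10.13, 10.90 and 10.54 (1.00 ± 0.21, adjusted p = 0.0251). That call was lost without line 1, 2 or 3 (adjusted p = 0.065, 0.0577 and 0.0551) or culture 3 (0.0929). The helicase subunit gene Mcm2, at 0.48 ± 0.33, did not pass (adjusted p = 0.395). The number called was 1, 1 and 3 without lines 1, 2 and 3, 2, 5 and 0 without cultures 1, 2 and 3, and 8 with all 9 arrays in the fit.

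Of 47 mitosis genes, 2 were called higher (4.26%, against 7.26% of all genes) and 0 lower, with a median difference of 0.37. Ndc80, a kinetochore component, was at 9.65, 10.04 and 9.82 against 8.84, 9.25 and 9.03 (0.80 ± 0.14, adjusted p = 0.0158). It was not called without culture 1 (adjusted p = 0.0526) or 3 (0.0703), or with all 9 arrays in the fit (0.137). Cdca8, of the chromosomal passenger complex, was at 10.00, 10.51 and 9.93 against 8.59, 9.53 and 9.11 (1.07 ± 0.27, adjusted p = 0.0482), and was called neither without any 1 line nor without culture 1 or 3 (adjusted p = 0.0753 to 0.142), nor with 1 array weight per group (0.0657). The number called was 1 without any 1 line, 0, 2 and 0 without cultures 1, 2 and 3, 1 with all 9 arrays in the fit or 1 array weight per group, and 4 with only genes above the median level. The cultures themselves differed: the median mitosis gene was at -0.42, 0.41 and 0.03 in cultures 1, 2 and 3 relative to their mean, and at 0.21, 0.64 and 0.14 in the lines. Culture 2 thus lay above lines 1 and 3.

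Interferon response genes, which cells switch on when viral nucleic acid or type I interferon is sensed, were called in 1 direction. Of 31 measured genes, 13 were lower in the lines (41.9%, against 10.6% of all genes) and 0 higher, and the median difference was -1.71. The lines lay wholly below the cultures for 22 of them, as they did for 20.2% of all genes. The transcription factors Irf7, Stat2 and Irf9 were among them. Irf7, the factor that amplifies interferon production, was at 9.46, 7.43 and 6.68 in the lines and at 11.83, 10.61 and 11.80 in the cultures (-3.56 ± 0.76, adjusted p = 0.0282). Stat2 was at 10.59, 9.73 and 9.29 against 12.48, 11.68 and 12.26 (-2.27 ± 0.37, adjusted p = 0.0127), and its DNA-binding partner Irf9 at 10.40, 9.67 and 9.49 against 11.88, 11.18 and 11.59 (-1.70 ± 0.29, adjusted p = 0.0139). Line 1 was the highest of the lines for each of these factors and culture 2 the lowest of the cultures.

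Among the effectors, Oas3, an antiviral oligoadenylate synthetase, was at 7.15, 7.01 and 6.71 against 9.45, 8.34 and 9.90 (-2.27 ± 0.40, adjusted p = 0.0155). Its relative Oas1a was at 9.03, 7.64 and 7.88 against 9.92, 9.40 and 10.35 (-1.71 ± 0.42, adjusted p = 0.0431). The virion tether Bst2 was at 9.06, 8.25 and 8.17 against 10.93, 9.63 and 10.82 (-1.97 ± 0.42, adjusted p = 0.0277). Irf1, a factor of the interferon gamma response, fell by 0.90 on the log2 scale with values of 9.93, 9.82 and 10.22 against 10.97, 10.77 and 10.92 (adjusted p = 0.00675). The antiviral gene Ifit3 spread widely, at 12.02, 9.93 and 7.78 against 13.01, 11.58 and 13.11, and did not pass (-2.65 ± 1.09, adjusted p = 0.167).

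Trim30d and Irf1 were the 2 interferon genes called without any 1 array. The number called lower was 16, 6 and 6 without lines 1, 2 and 3 and 2, 12 and 3 without cultures 1, 2 and 3, 21 with all 9 arrays in the fit and 20 with only genes above the median level. Without line 3, 1 was called higher. Irf7, Stat2, Irf9, Oas3, Oas1a and Bst2 each lost the call without culture 1 (adjusted p = 0.0546 to 0.132), and all but Oas3 without culture 3 (0.0622 to 0.146). Irf7 and Oas1a also lost it without culture 2 (0.0597 and 0.0724), and Irf7, Oas1a and Bst2 without line 2 (0.0674, 0.0891 and 0.0664) or line 3 (0.0592, 0.109 and 0.0758). The median interferon gene lay at -0.89, -2.21 and -2.29 in lines 1, 2 and 3 and at 0.33, -0.70 and 0.37 in cultures 1, 2 and 3, relative to the culture mean. Culture 2 was the lowest culture here and the highest for the mitosis genes, and the part of growth state in these values was not tested.

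**Figure D3:**
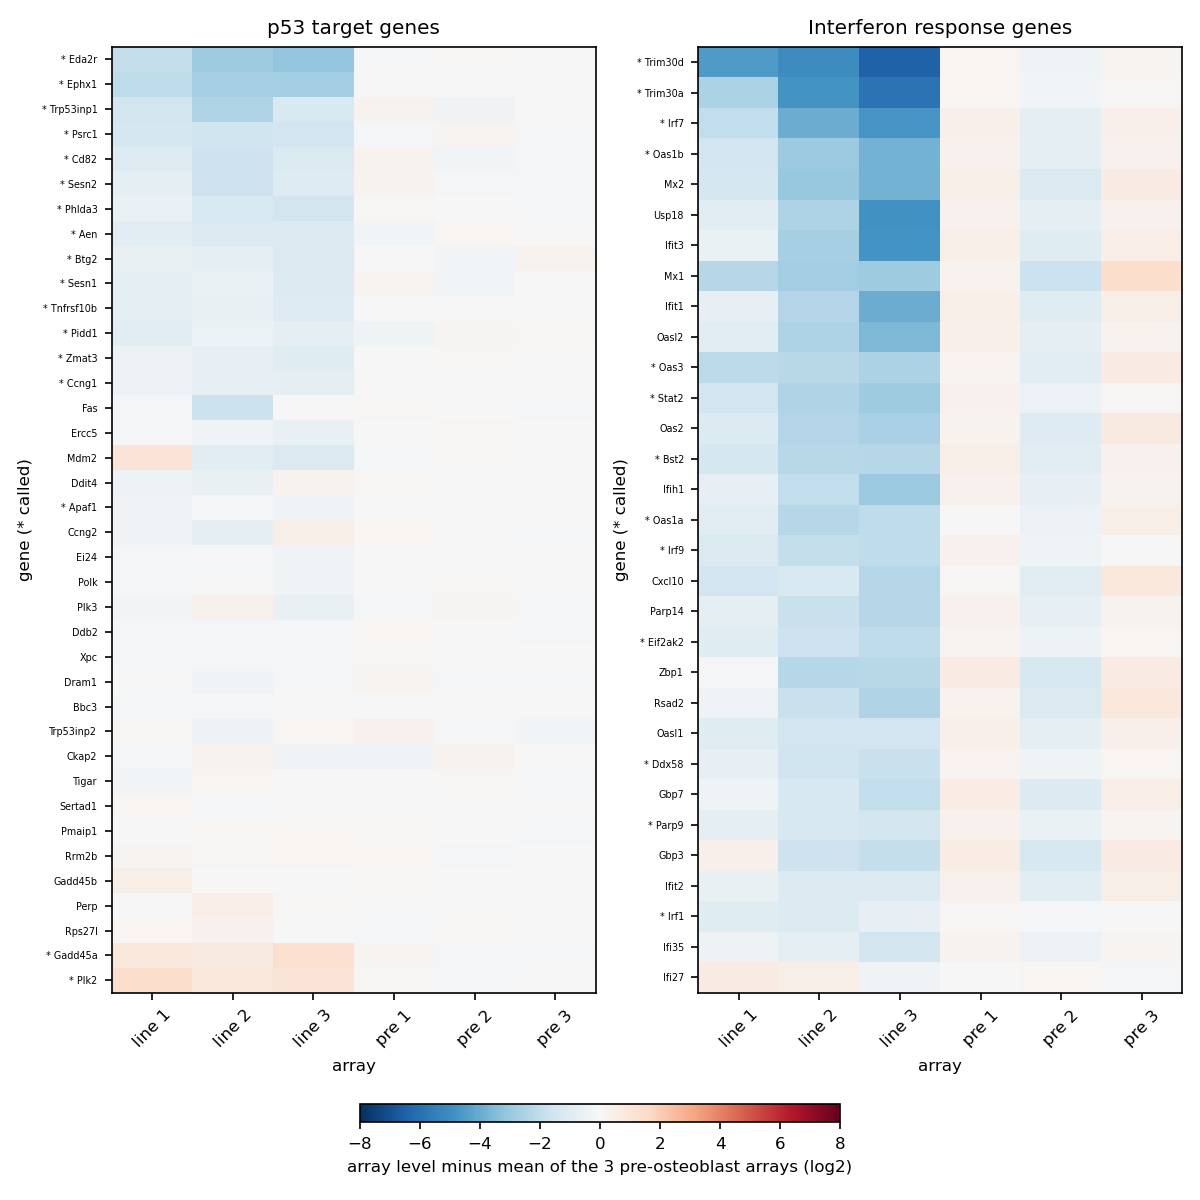
Each row is a p53 target gene (left) or an interferon response gene (right), each column an array, and the colour is the log2 level of that array minus the mean of the 3 pre-osteoblast cultures; an asterisk marks a called gene. The 15 p53 targets called lower are pale to mid blue in all lines. By the list median the interferon genes are paler in line 1 (-0.89) than in lines 2 and 3 (-2.21 and -2.29), and single genes such as Irf1 depart from this order.

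A short motif was searched in the promoters of the interferon genes. The core GAAANNGAAA of the interferon-stimulated response element, a promoter element of interferon-induced genes, was looked for on both strands of the same 250 bases; 2 matches may overlap. It was found for 531 of 15614 genes (3.4%), for 12 of the 22 listed interferon genes with a promoter (54.5%) and for 6 of the 11 called lower (54.5%). Over all genes it stood in the promoters of 56 of 1738 genes called lower (3.22%) and 37 of 1115 called higher (3.32%), near the share of all genes. Among those called at least 2-fold lower it stood in 22 of 325 (6.77%) and among those at least 2-fold higher in 7 of 269 (2.6%). The windows of 5 genes called lower follow, with the matches in capitals. A match on the opposite strand reads TTTCNNTTTC. Trim30a is the only other listed gene called lower with a match.
Trim30d: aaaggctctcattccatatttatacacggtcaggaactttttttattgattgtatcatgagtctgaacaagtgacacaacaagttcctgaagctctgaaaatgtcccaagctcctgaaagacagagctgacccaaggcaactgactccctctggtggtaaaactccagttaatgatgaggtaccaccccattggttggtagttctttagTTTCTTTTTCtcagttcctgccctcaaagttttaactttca
Oas3: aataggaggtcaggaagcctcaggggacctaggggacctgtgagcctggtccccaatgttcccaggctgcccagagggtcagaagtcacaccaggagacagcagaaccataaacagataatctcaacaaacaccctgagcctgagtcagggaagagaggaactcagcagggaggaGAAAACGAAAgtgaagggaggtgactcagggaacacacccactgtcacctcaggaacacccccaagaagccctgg
Stat2: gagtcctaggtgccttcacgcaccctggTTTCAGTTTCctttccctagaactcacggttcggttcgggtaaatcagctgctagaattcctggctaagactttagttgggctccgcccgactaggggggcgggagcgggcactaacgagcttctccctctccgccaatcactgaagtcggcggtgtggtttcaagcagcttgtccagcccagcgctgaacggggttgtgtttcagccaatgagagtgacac
Bst2: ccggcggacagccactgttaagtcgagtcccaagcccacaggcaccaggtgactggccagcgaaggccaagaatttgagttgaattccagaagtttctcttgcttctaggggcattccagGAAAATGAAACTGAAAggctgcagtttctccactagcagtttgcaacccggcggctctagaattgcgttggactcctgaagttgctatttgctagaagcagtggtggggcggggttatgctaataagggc
Oas1a: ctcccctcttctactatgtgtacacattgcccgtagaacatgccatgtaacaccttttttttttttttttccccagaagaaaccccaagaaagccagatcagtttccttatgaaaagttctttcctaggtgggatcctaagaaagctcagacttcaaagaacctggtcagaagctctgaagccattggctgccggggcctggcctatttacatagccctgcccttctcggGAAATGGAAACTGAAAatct
The windows lie at chr7:104507850-104508099 (minus strand), chr5:120777660-120777909 (minus), chr10:128270248-128270497 (plus), chr8:71537473-71537722 (minus) and chr5:120907526-120907775 (minus) of GRCm38.p6. The first match starts 41 bases before the gene in Trim30d, 75 in Oas3, 222 in Stat2, 130 in Bst2 and 20 in Oas1a. Bst2 and Oas1a hold 2 overlapping matches and the others 1. A match says nothing of occupancy in these cells.

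Of 14 antigen processing genes measured, 7 were called lower (50%, against 10.6% of all genes) and 0 higher (median -0.83). Psme1 and Psme2, subunits of the proteasome activator of antigen presentation, were at 10.55, 10.17 and 10.57 against 11.60, 11.27 and 11.57 (-1.05 ± 0.15, adjusted p = 0.00778) and at 11.70, 11.63 and 11.82 against 12.57, 12.34 and 12.53 (-0.76 ± 0.09, adjusted p = 0.00466). Both were called without any 1 array. The peptide transporter gene Tap1 was at 8.80, 7.99 and 7.88 against 10.63, 9.72 and 10.62 (-2.10 ± 0.35, adjusted p = 0.0132), and lost the call without culture 1 (0.0562) or 3 (0.062). The immunoproteasome subunit gene Psmb8 did not pass (-0.73 ± 0.28, adjusted p = 0.141). The number called lower was 5, 6 and 5 without lines 1, 2 and 3 and 3, 8 and 2 without cultures 1, 2 and 3.

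Of 25 fibroblast and stromal markers 9 were higher (36%, against 7.26% of all genes) and 0 lower (median 0.31). The 9 include Cdh11 and Thy1, the markers of this comparison, and Cd34, named above for the size of its rise. The count is therefore no check of the label that calls the lines fibroblastic. After Cdh11, Thy1 and Cd34 came Eng, endoglin, a TGF-beta co-receptor used to define stromal stem cells, at 10.63, 10.45 and 10.72 against 7.81, 7.70 and 7.78 (2.84 ± 0.08, 7.15-fold, adjusted p = 0.000268). Nes, nestin, was at 7.11, 7.17 and 7.28 against 6.55, 6.47 and 6.63 (0.64 ± 0.07), below the median gene in both groups. These 5 were called without any 1 array. Pdgfrb, a growth factor receptor of stromal cells, was at 12.42, 12.21 and 12.67 against 12.99, 12.84 and 12.89 and did not pass (-0.47 ± 0.13, adjusted p = 0.052), though it was called lower without line 3 (0.0203) and in 6 further settings, from the fit of all 9 arrays (0.0162) to the one with an intensity trend (0.0436). The number of markers called higher was 8, 12 and 7 without lines 1, 2 and 3 and 6, 5 and 5 without cultures 1, 2 and 3, and 1 was called lower without line 1 and 2 without line 3. With all 9 arrays in the fit or only genes above the median level 2 were lower as well, and 1 under 4 further settings.

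Of 27 integrin and laminin genes, 8 were higher (29.6%, against 7.26% of all genes) and 0 lower. The lines lay wholly above the cultures for 14 of them, as they did for 15.4% of all genes. Besides Lama4, the laminin chain genes Lama2 (8.79, 9.24 and 8.88 against 7.24, 7.17 and 7.49, 1.67 ± 0.15) and Lamb1 (11.41, 11.08 and 11.59 against 10.11, 10.19 and 10.11, 1.22 ± 0.13) were called without any 1 array. Itgb8, the integrin chain that helps to release latent TGF-beta, was at 7.48, 8.31 and 8.44 against 6.88, 6.80 and 6.97 (1.19 ± 0.25, adjusted p = 0.0276). Its call was lost without line 2 (0.0644) or 3 (0.0622) or any 1 culture (0.0927 to 0.0962). The number of integrin and laminin genes called was 6, 7 and 8 without lines 1, 2 and 3 and 5, 3 and 3 without cultures 1, 2 and 3, and 1 was called lower without line 2. Of 15 classical cadherins 2 were higher and 2 lower (13.3% each, against 7.26% and 10.6% of all genes). The 2 higher ones were Cdh2 and Cdh11. As Cdh11 is a marker of this comparison, the share higher is no separate result on the list. N-cadherin, Cdh2, was at 11.99, 12.23 and 12.23 against 11.43, 11.52 and 11.44 (0.69 ± 0.08, adjusted p = 0.00521). P-cadherin, Cdh3, was at 9.50, 9.94 and 9.92 against 10.55, 10.98 and 10.74 (-0.97 ± 0.16, adjusted p = 0.0134, and 0.0603 without culture 3). Of the 2 lower cadherins 1 remained without line 1 or 2 or culture 1 or 2, and 0 without culture 3.

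Collagen chains moved in both directions, with 3 of 27 higher (11.1%, against 7.26% of all genes) and 8 lower (29.6%, against 10.6%). Col8a1, a network collagen of vessel walls and other tissues, was at 11.54, 11.92 and 11.50 against 7.73, 8.50 and 8.36 (3.46 ± 0.23, 11-fold, adjusted p = 0.00139). The basement membrane chains Col4a1, at 8.69, 7.98 and 8.60 against 9.74, 9.65 and 9.68, and Col4a2, at 8.77, 8.14 and 8.61 against 9.67, 9.63 and 9.60, were lower by -1.27 ± 0.19 and -1.12 ± 0.16. Col4a1 had an adjusted p of 0.0101, and of 0.0501 without culture 3. The hypertrophic cartilage collagen Col10a1 was at 6.65, 6.63 and 7.95 against 9.29, 9.58 and 8.91 (-2.19 ± 0.40, adjusted p = 0.0171), and lost the call without line 1 (0.0591) or culture 1, 2 or 3 (0.068, 0.0688 and 0.054). The main bone collagen Col1a1 did not pass (-0.25 ± 0.19, adjusted p = 0.455). The number called higher was 4, 5 and 3 without lines 1, 2 and 3 and 1, 1 and 2 without cultures 1, 2 and 3; the number called lower was 5, 6, 7, 3, 5 and 1 in the same order.

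Bone matrix and mineralisation genes were called no more often than all genes in the fit of the 6 arrays. Of 34, 2 were higher (5.88%, against 7.26% of all genes) and 2 lower (5.88%, against 10.6%), with a median of 0.08. Postn, periostin, a matricellular protein of periosteum, was at 13.34, 12.60 and 13.41 against 11.41, 10.35 and 10.82 (2.26 ± 0.33, 4.78-fold, adjusted p = 0.00926). Alpl, tissue-nonspecific alkaline phosphatase, an early enzyme of the osteoblast, was at 9.69, 10.22 and 12.37 against 9.28, 8.09 and 7.82, so that every line exceeded every culture, line 3 by far the most. That difference of 2.37 ± 0.77 did not pass (adjusted p = 0.0946), but was called with all 9 arrays in the fit (0.0468) and with only genes above the median level (0.0476). The parathyroid hormone receptor gene Pth1r was at 8.50, 8.48 and 9.74 against 7.75, 7.64 and 7.92 (1.14 ± 0.35, adjusted p = 0.0822), and was called without line 3 (0.0156) and with only genes above the median level (0.0422). Leave-one-out fits called 3, 5 and 4 higher without lines 1, 2 and 3 and 2, 1 and 1 without cultures 1, 2 and 3, and the number called lower was 0, 1, 2, 0, 0 and 0. With all 9 arrays in the fit 5 were called higher and 2 lower, and with only genes above the median level 7 and 1.

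Osteoblast transcription factors numbered 18, with 3 called higher (16.7%, against 7.26% of all genes) and 2 lower (11.1%, against 10.6%), and a median of -0.12. Zfp521, a zinc finger protein that restrains Runx2 activity in the osteoblast lineage, was at 11.53, 10.93 and 11.27 against 7.97, 7.65 and 7.39 (3.57 ± 0.20, 11.9-fold, adjusted p = 0.00113). Mef2c was at 8.31, 8.44 and 9.06 against 6.94, 6.91 and 6.83 (1.71 ± 0.20). Twist1, a basic helix-loop-helix factor of immature mesenchyme, was at 9.98, 10.25 and 10.20 against 9.41, 9.39 and 9.18 (0.82 ± 0.10). The 3 rises held without any 1 array, while the number lower was 3, 2 and 3 without lines 1, 2 and 3, 0 without any 1 culture and 1 with all 9 arrays in the fit. Sp7, the osterix gene whose promoter drives the Cre, was at 7.84, 8.52 and 9.24 against 8.53, 7.81 and 7.68, with overlapping groups (0.52 ± 0.40, adjusted p = 0.452).

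Markers of the other cell types to which such cells can turn were also counted. Of 13 adipocyte markers 3 were lower (23.1%, against 10.6% of all genes) and 1 higher. The lipid droplet protein gene Plin4 was at 8.18, 7.68 and 8.10 against 11.41, 10.70 and 10.82 (-2.99 ± 0.23, 7.94-fold lower) and Pparg, the master factor of fat cells, at 10.66, 9.96 and 9.81 against 11.84, 11.61 and 11.61 (-1.54 ± 0.23, adjusted p = 0.00952); both held without any 1 array. The lipase gene Lpl did not pass (-1.30 ± 0.54, adjusted p = 0.169). Of 19 chondrocyte markers 2 were lower (10.5%, near the 10.6% of all genes) and 0 higher. Of 21 muscle and myofibroblast markers 2 were lower (9.52%) and 1 higher (4.76%, against 7.26% of all genes). The higher one was the calponin gene Cnn1 at 11.85, 11.26 and 12.98 against 8.96, 8.69 and 8.48 (3.32 ± 0.43, 10-fold). Acta2, smooth muscle actin, did not pass (-0.18 ± 0.11, adjusted p = 0.318). Of 13 epithelial markers 0 were called, against 17.9% of all genes, and their highest group mean was 8.10. Without line 3, 1 epithelial marker was called higher. The chondrocyte falls numbered 0, 2 and 2 without lines 1, 2 and 3 and 0, 1 and 0 without cultures 1, 2 and 3, and 2 rose without line 2. The muscle falls were both lost without line 1 or 2 or any 1 culture, and 3 rose without line 1. The adipocyte rise was lost without culture 3.

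**Figure D4:**
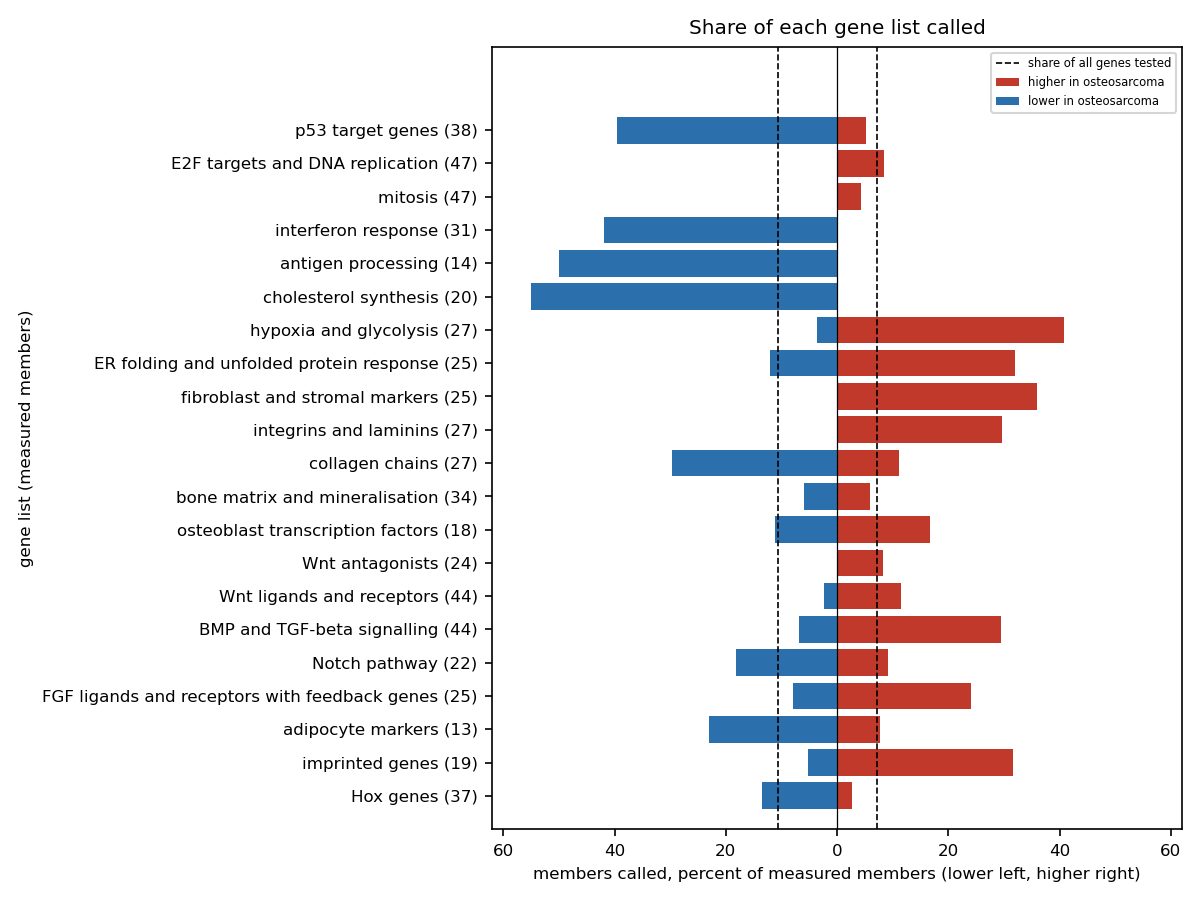
For each gene list, with its number of measured members in parentheses, the bar to the right is the percentage of members called higher and the bar to the left the percentage called lower; dashed lines mark 7.26% and 10.6%, the shares of all genes tested. Cholesterol synthesis, antigen processing, interferon response and p53 targets reach furthest to the left, and hypoxia and glycolysis and stromal markers furthest to the right.

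Wif1, the secreted Wnt antagonist that the series concerns, was at 6.66, 6.56 and 7.41 in the lines and at 7.14, 6.80 and 6.79 in the cultures, all below the median gene level. The groups overlapped and the difference was -0.03 ± 0.24 (adjusted p = 0.951), and its sign turned without line 1, line 2 or culture 1 (0.08, 0.13 and 0.08). Of 24 Wnt antagonists, 2 were higher (8.33%, near the 7.26% of all genes) and 0 lower (median 0.01). Tpbg, the trophoblast glycoprotein that turns off canonical Wnt signalling, was at 10.23, 10.29 and 10.49 against 9.65, 9.71 and 9.61 (0.68 ± 0.08, adjusted p = 0.00546). Apcdd1, a membrane-bound inhibitor, was at 10.06, 9.02 and 9.57 against 7.91, 8.28 and 8.07 (1.47 ± 0.27, adjusted p = 0.0171), and lost the call without any 1 culture (0.0524 to 0.0743). The antagonist gene Sfrp4 was at 10.53, 7.59 and 9.32 against 7.91, 6.79 and 6.96 and did not pass (1.93 ± 0.76, adjusted p = 0.153), but was called without line 2 (0.0253). The number of antagonists called higher was 3, 4 and 3 without lines 1, 2 and 3 and 1 without any 1 culture, and 1 was called lower without line 2, line 3 or culture 3.

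Of 44 Wnt ligands and receptors, 5 were higher and 1 lower, against 7.26% and 10.6% of all genes. Wnt5a, a ligand of the beta-catenin-independent branch, was at 9.31, 8.57 and 9.37 against 5.97, 6.05 and 5.99 (3.08 ± 0.22, 8.45-fold, adjusted p = 0.00157). Its receptor Ror2 was at 9.68, 9.73 and 10.22 against 8.59, 8.65 and 8.61 (1.26 ± 0.15, adjusted p = 0.00515). The receptor gene Fzd3 was at 6.94, 7.09 and 7.01 against 5.52, 5.54 and 5.61 (1.46 ± 0.06), below the median gene level in both groups. Rspo3, a secreted agonist, was at 9.31, 8.36 and 8.29 against 6.69, 6.80 and 6.88 (1.87 ± 0.28). The lines stood above the cultures in all 4, and all 4 calls held without any 1 array. The co-receptor Lrp5 was at 9.91, 9.76 and 9.61 against 10.29, 10.18 and 10.18 (-0.45 ± 0.09, adjusted p = 0.0222), a call lost without culture 1, 2 or 3 (0.0803, 0.0698 and 0.0771). Without lines 1, 2 and 3 the number called higher was 7, 8 and 4, and without cultures 1, 2 and 3 it was 5, 4 and 4, and 2 were called lower without line 1.

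Among 20 beta-catenin target genes, 2 were higher and 2 lower (10% each, against 7.26% and 10.6% of all genes). Myc, the growth-promoting transcription factor, was at 11.23, 11.79 and 11.72 against 10.53, 10.46 and 10.33 (1.14 ± 0.16, adjusted p = 0.00805), and Jun, an AP-1 factor, at 10.69, 10.72 and 10.86 against 9.84, 10.13 and 9.91 (0.80 ± 0.10, adjusted p = 0.00535). Both held without any 1 array. Axin2, the feedback inhibitor widely read as a sign of canonical Wnt activity, was at 7.21, 7.26 and 7.52 against 7.14, 7.16 and 7.26 and did not pass (0.14 ± 0.10, adjusted p = 0.385). It lay below the median gene level in both groups. The number called lower was 2, 3 and 1 without lines 1, 2 and 3 and 0, 1 and 0 without cultures 1, 2 and 3.

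BMP and TGF-beta signalling held 13 of 44 genes higher (29.5%, against 7.26% of all genes) and 3 lower (6.82%, against 10.6%), with a median of 0.17. The ligands were called in both directions. Bmp2 was at 6.10, 6.22 and 6.66 against 5.61, 5.71 and 5.58 (0.69 ± 0.15, adjusted p = 0.0295), below the median gene level in both groups. The activin subunit gene Inhba was at 11.54, 11.86 and 11.35 against 10.92, 11.16 and 10.91 (0.58 ± 0.15, adjusted p = 0.046). Both lost the call without any 1 culture (0.0764 to 0.156), and Inhba also without line 1 or 2 (0.11 and 0.0569) or with all 9 arrays in the fit (0.106). Lower were Bmp4, at 10.93, 11.23 and 11.77 against 12.62, 12.62 and 12.59 (-1.30 ± 0.21, adjusted p = 0.0114, and 0.0543 without culture 3), and Tgfb1, at 9.64, 9.98 and 9.89 against 10.74, 10.84 and 10.80 (-0.96 ± 0.10). Fstl3, which binds activin, was at 9.58, 9.52 and 9.67 against 10.88, 11.11 and 10.93 (-1.38 ± 0.08). Of 9 receptors 4 were higher and 0 lower. Bmpr1b was at 6.88, 7.42 and 6.51 against 5.08, 5.24 and 5.44 (1.68 ± 0.24), below the median gene level in both groups. Tgfbr2 was at 11.74, 11.68 and 11.69 against 11.01, 11.05 and 11.08 (0.65 ± 0.05). The repressors of the pathway Bambi, at 9.02, 9.23 and 9.12 against 8.21, 8.09 and 8.10 (0.99 ± 0.07), and Skil, at 8.79, 8.86 and 9.13 against 7.58, 7.94 and 7.45 (1.27 ± 0.15), rose as well. Tgfb1, Fstl3, Bmpr1b, Tgfbr2, Bambi and Skil held their calls without any 1 array. The number called higher was 11, 18 and 13 without lines 1, 2 and 3 and 9, 7 and 4 without cultures 1, 2 and 3.

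In the Notch pathway 4 of 22 genes were lower (18.2%, against 10.6% of all genes) and 2 higher (9.09%, against 7.26%). The 4 lower ones held without any 1 array. Notch3, the receptor of mural cells, was at 7.33, 7.34 and 7.47 against 9.69, 9.43 and 9.68 (-2.22 ± 0.09, 4.67-fold lower, adjusted p = 0.000446). Notch1 was at 9.09, 8.67 and 9.15 against 10.50, 10.44 and 10.42 (-1.48 ± 0.13). Lfng, the Fringe enzyme that modifies Notch receptors, was at 8.79, 8.79 and 8.54 against 10.13, 9.99 and 9.92 (-1.31 ± 0.10), and the co-activator Maml1 fell by 0.65 on the log2 scale. The ligand Jag1 did not pass (-0.90 ± 0.28, adjusted p = 0.0815), but was called with only genes above the median level (0.043). The number called higher was 2, 1 and 2 without lines 1, 2 and 3 and 0 without any 1 culture.

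Of 25 FGF ligands, receptors and feedback genes, 6 were higher (24%, against 7.26% of all genes) and 2 lower (8%, against 10.6%). The ligand Fgf2 was at 8.56, 8.48 and 8.19 against 7.11, 7.47 and 7.42 (1.08 ± 0.14, adjusted p = 0.00651), the receptor Fgfr1 at 11.87, 11.69 and 11.89 against 11.09, 10.66 and 10.80 (0.97 ± 0.13, adjusted p = 0.00634) and the feedback inhibitor Spry1 at 9.21, 9.27 and 9.19 against 7.78, 7.48 and 7.48 (1.65 ± 0.10, adjusted p = 0.0012). The 3 held without any 1 array. Without lines 1, 2 and 3 the number called higher was 3, 7 and 7, and without cultures 1, 2 and 3 it was 4, 5 and 3, and the number lower 1, 1, 2, 1, 0 and 0.

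The insulin-like growth factors went opposite ways. In their list of 28 IGF, PDGF, HGF and VEGF genes 5 were higher (17.9%, against 7.26% of all genes) and 6 lower (21.4%, against 10.6%). Igf1 was at 10.40, 9.42 and 9.49 in the lines, against a mean of 7.14 ± 0.13 (SD, n = 3) in the cultures (2.63 ± 0.27, 6.18-fold, adjusted p = 0.00359), while Igf2, the imprinted fetal form, was at 7.57, 7.13 and 8.06 against 11.11, 9.84 and 10.05 (-2.75 ± 0.40, 6.72-fold lower, adjusted p = 0.00857). Of 6 IGF binding protein genes 3 rose, Igfbp6 from 7.20, 7.24 and 7.27 in the cultures to 11.43, 10.82 and 11.27 in the lines (3.94 ± 0.16, 15.3-fold, adjusted p = 0.000446) and Igfbp3 from 7.18, 7.08 and 7.16 to 9.43, 9.53 and 9.92 (2.48 ± 0.13). The third, Igfbp5, was at 8.99, 9.46 and 8.00 against 6.85, 6.79 and 6.89 (1.98 ± 0.36, adjusted p = 0.0172), and lost the call without line 1 (0.0636) or any 1 culture (0.0667 to 0.0723). The Tie2 ligand Angpt1 was lower, at 9.40, 9.18 and 9.59 against 11.82, 11.14 and 11.44 (-2.08 ± 0.20), as was Vegfb (-0.90 ± 0.08). All of these apart from Igfbp5 held without any 1 array. Pdgfrb, also on this list, is given above. The number called higher was 4, 10 and 5 without lines 1, 2 and 3 and 3 without any 1 culture, and the number lower was 3 without culture 3.

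Metabolic genes were counted in separate lists. Of 27 hypoxia and glycolysis genes, 11 were higher (40.7%, against 7.26% of all genes) and 1 lower (3.7%, against 10.6%), with a median of 0.39. Egln3, an oxygen-sensing prolyl hydroxylase that HIF induces, was at 8.61, 9.13 and 7.70 against 6.29, 5.84 and 6.15 (2.39 ± 0.36, 5.23-fold, adjusted p = 0.0101). Slc16a3, the lactate exporter MCT4, was at 9.52, 9.62 and 9.21 against 7.59, 7.63 and 7.76 (1.79 ± 0.12, adjusted p = 0.00139). Pdk1, which keeps pyruvate from the mitochondrion, was at 9.53, 9.58 and 9.46 against 8.67, 8.22 and 8.31 (1.12 ± 0.13).

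The collagen prolyl hydroxylase P4ha1 (1.02 ± 0.07), the glycolytic enzymes Pfkl (0.99 ± 0.08), Pgk1 (0.89 ± 0.06) and Hk2 (0.63 ± 0.05) also rose. Pgk1, often used as a reference gene, was at 13.06, 13.18 and 13.17 against 12.19, 12.28 and 12.28. Eno2, neuron-specific enolase, was lower at 7.92, 7.74 and 7.90 against 8.80, 8.70 and 8.70 (-0.88 ± 0.07). These 8 genes held without any 1 array. Ldha and Vegfa did not pass (0.17 ± 0.13, adjusted p = 0.451, and -0.22 ± 0.11, adjusted p = 0.229). Leave-one-out fits called 7, 10 and 8 higher without lines 1, 2 and 3 and 7, 11 and 7 without cultures 1, 2 and 3.

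Of 20 cholesterol synthesis genes, 11 were lower (55%, against 10.6% of all genes) and 0 higher (median -0.43). Tm7sf2, a sterol reductase, was at 9.85, 9.85 and 9.94 against 11.82, 11.38 and 11.58 (-1.71 ± 0.12, 3.28-fold lower, adjusted p = 0.00145). Nsdhl, a sterol demethylation enzyme, was at 11.88, 11.96 and 11.83 against 13.08, 12.94 and 12.99 (-1.12 ± 0.06, adjusted p = 0.00113), and Fdft1, squalene synthase, at 12.55, 12.62 and 12.68 against 13.10, 12.98 and 13.09 (-0.44 ± 0.06, adjusted p = 0.00848). The 3 held without any 1 array. Cyp51, lanosterol demethylase, also held (-0.60 ± 0.08, adjusted p = 0.00602), but was not called with all 9 arrays in the fit (0.244). The synthase gene Hmgcs1 did not pass (-0.13 ± 0.12, adjusted p = 0.544). The number called lower was 6, 12 and 10 without lines 1, 2 and 3, 6, 7 and 4 without cultures 1, 2 and 3.

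The list of protein folding in the endoplasmic reticulum and the unfolded protein response had 25 genes (median 0.14). Of these 8 were higher (32%, against 7.26% of all genes) and 3 lower (12%, against 10.6%). The disulfide isomerase Pdia6 was at 12.12, 12.08 and 12.17 against 11.27, 11.43 and 11.28 (0.80 ± 0.07, adjusted p = 0.00225) and the co-chaperone Dnajb11 at 10.57, 10.50 and 10.59 against 9.94, 10.12 and 10.00 (0.53 ± 0.07). Xbp1, the transcription factor that drives this response, was lower, at 12.14, 11.95 and 12.12 against 12.78, 12.59 and 12.59 (-0.58 ± 0.09, adjusted p = 0.00923). These 3 held without any 1 array. The number called higher was 5, 5 and 6 without lines 1, 2 and 3 and 5, 5 and 3 without cultures 1, 2 and 3, and the number lower 1, 2, 1, 1, 1 and 1.

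**Figure D5:**
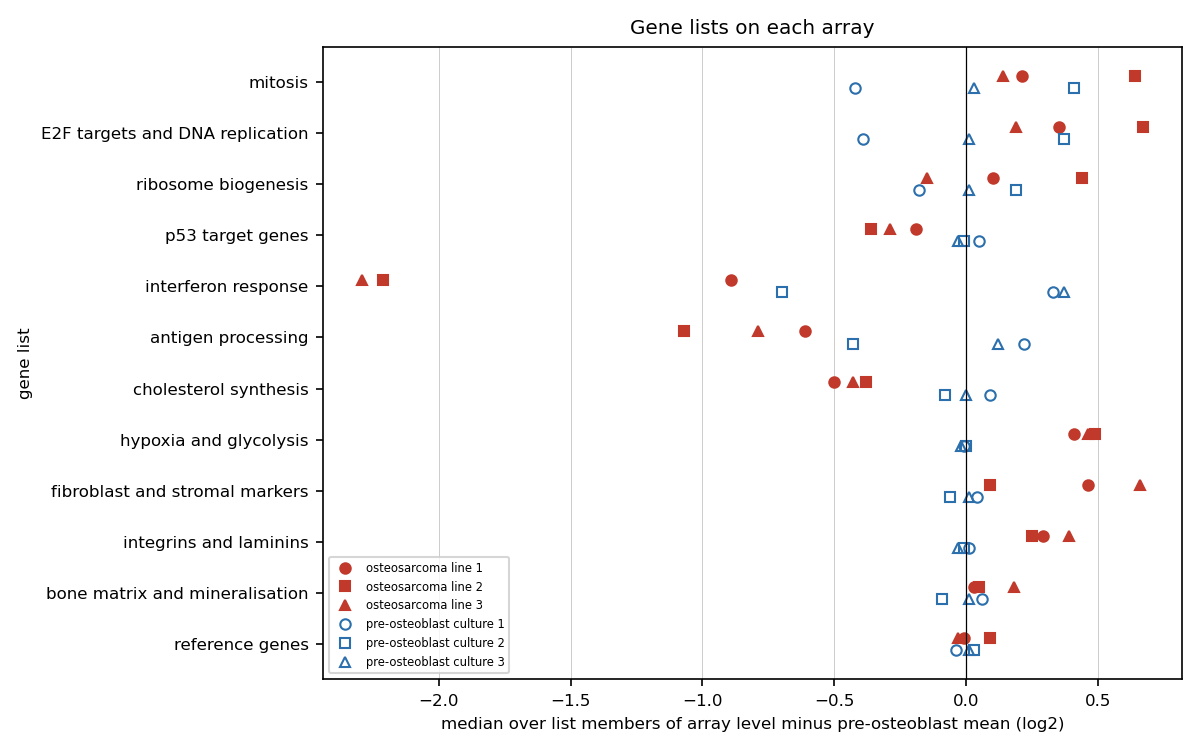
Each point is the median, over the measured members of a gene list, of one array's log2 level minus the pre-osteoblast mean; filled symbols are the 3 osteosarcoma lines and open symbols the 3 pre-osteoblast cultures. Among the lists drawn, interferon genes spread most, from -2.29 in line 3 to 0.37 in culture 3, and culture 2 stands apart from cultures 1 and 3 in both interferon genes (-0.70) and mitosis genes (0.41).

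The lines also differed among themselves, more than the cultures did: the median SD of a gene was 0.118 over the lines and 0.0872 over the cultures. With 1 array per line these differences have no replicate check. Thbs4, a tendon matrix protein, was at 8.06, 7.04 and 12.23 in lines 1, 2 and 3, and the collagenase Mmp13 at 9.33, 7.72 and 12.91. Mmp13 was called lower in the lines without line 3 (adjusted p = 0.0428). Thbs4 and Mmp13 were highest in line 3, which also had the most Alpl. Aldh1a2, a retinoic acid synthesis enzyme, was at 5.80, 7.73 and 10.44.

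Col14a1, a fibril-associated collagen, was at 11.32, 7.17 and 12.39, the acute phase serpin Serpina3n at 11.53, 7.04 and 11.37, the kininogen Kng1 at 10.01, 6.39 and 10.86 and the adhesion receptor Adgrd1 at 11.69, 7.31 and 10.30. In these 4 line 2 stood alone at the low end. With Uty, given above, these are the 8 widest ranges among genes whose mean over the lines was above the median gene level. Clone-like names were left out. Xist and Eif2s3y, given above, ranged more widely but had means below that level. Of 9957 genes above the median level, 19 lay at least 4-fold from both other lines in line 1, 39 in line 2 and 22 in line 3.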

How the data were processed

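Biotin-labelled total RNA was hybridised to 1 expression array per sample. The deposited values are log2 levels per probe set that the authors made with RMA, which corrects background, normalizes between arrays and summarises probes; per the submitters' processing notes, which also name mm9. Its version is not given in the sources used here. After normalization each level is relative to the rest of its array, so a change in RNA content per cell is not seen. Precision is limited by having 3 arrays in a group.

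Of 35556 probe sets, 21789 had 1 gene symbol in the platform annotation, 1621 several and 12146 none; the latter 2 kinds were left out. Of those with 1 symbol, 21698 matched the reference gene table by identifier. For 999 genes with several probe sets the one with the highest mean over the 9 arrays was used. The 6 arrays were fitted with limma 3.58.1 in R 4.3.3 (lmFit, eBayes, 4 residual and 1.86 prior degrees of freedom), two-sided, with Benjamini-Hochberg adjustment over 19938 genes and no filter on level. The fit was also run on simulated data with known differences, and the outcome is not reported here. Array medians lay between 7.43 and 7.54, and at most 4.33% of the values of an array pair were equal. P values measure the spread between lines and between cultures of 1 line.

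Named genes are the markers with Wif1 and Rb1, members of 49 gene lists, and genes taken by size. The latter are the 12 largest rises and falls among called genes with groups apart and a higher mean above the median level. They also include the 8 widest ranges over the lines among genes with a line mean above that level. Clone-like names were left out of both. Xist, Uty, Kdm5d and Eif2s3y check the labels. The members and lists were chosen with earlier results of these data known. Some list genes were not analysed here, and neither was Trp53, which is in none of the lists. Promoters are the 250 bases before the start of a gene in RefSeq, GRCm38.p6, used for 15614 of the genes by symbol.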

Additional observations from a re-analysis of the deposited data

How the results depend on the processing

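Leaving out each array in turn gave 553 to 1481 genes higher and 1031 to 2044 lower, the smallest counts without pre-osteoblast culture 3; of the 3566 called genes, 1572 were also called without that culture and 2810 without line 2. The other 8 settings kept both counts within 1.5 times: 1986 higher and 2700 lower with all 9 arrays in the fit, 1772 and 2119 with quantile normalization again, 1421 and 2310 with arrays centred on their median, 1321 and 1970 with only genes above the median level, and 1395 to 1523 and 2036 to 2196 with the rest. Signs turned for differences that had not passed: Wif1 ranged from -0.30 to 0.13 over the fits without 1 array, Mdm2 from -1.03 to 0.08, Cdkn2c from -0.03 to 0.15, Xist from -0.04 to 3.68 and Kng1 from -1.25 to 0.99. The causes were not tested. Over the named genes and all 14 settings, 2115 results kept direction and side of the threshold, 80 lost the call, 22 gained it and 8 changed sign. No paired analysis was possible, because the lines came from tumours and the cultures from the Kusa4b10 line. The labels name no animal or other unit that a line and a culture share. Each line is 1 array, and values near background are compressed by RMA.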

Other observations

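Imprinted genes are those of which a cell normally reads 1 parental copy. Of 19 measured, 6 were called higher in the lines (31.6%, against 7.26% of all genes) and 1, Igf2, lower (5.26%, against 10.6%). Plagl1, a zinc finger factor of an imprinted growth network, was at 9.88, 9.26 and 9.97 in the lines and at 7.45, 7.32 and 7.31 in the cultures (2.35 ± 0.19, 5.08-fold, adjusted p = 0.00216). Grb10, an adaptor that dampens insulin receptor signalling, was at 12.35, 12.43 and 12.16 against 11.22, 11.07 and 10.89 (1.25 ± 0.11, adjusted p = 0.00257). Both were called without any 1 array, as was Igf2. Ndn, necdin, was at 10.57, 9.04 and 8.07 against 5.65, 5.60 and 5.65 (3.59 ± 0.60, 12.1-fold, adjusted p = 0.0135), and lost its call without culture 1, 2 or 3 (0.0564, 0.0564 and 0.0621). The number higher was 6, 7 and 5 without lines 1, 2 and 3 and 2 without any 1 culture.

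Genes of bone resorption were looked at as well. Tnfrsf11b, osteoprotegerin, the decoy that blocks osteoclast formation, was at 7.26, 7.37 and 8.90 in the lines and at 10.46, 10.72 and 10.34 in the cultures (-2.66 ± 0.45, 6.32-fold lower, adjusted p = 0.0138), and lost the call without culture 1, 2 or 3 (0.0564, 0.0592 and 0.0578). Efnb2, ephrin B2, was at 10.04, 9.92 and 10.13 against 8.28, 8.69 and 8.56 (1.52 ± 0.12, adjusted p = 0.00205), and Acp5, tartrate-resistant acid phosphatase, best known from osteoclasts, at 8.22, 7.93 and 7.95 against 6.92, 7.07 and 6.94 (1.06 ± 0.10, adjusted p = 0.00272). In the DNA methylation machinery 3 of 16 genes were higher (18.8%, against 7.26% of all genes) and 4 lower (25%, against 10.6%). The methylcytosine oxidase Tet1 was at 8.35, 8.06 and 8.61 against 9.98, 9.82 and 9.82 (-1.53 ± 0.15, adjusted p = 0.0029), and the methylated DNA binding protein Mbd2 at 11.75, 11.71 and 11.71 against 11.11, 11.11 and 11.12 (0.61 ± 0.05, adjusted p = 0.00184). The counts were 1 higher and 2 lower without line 1 or culture 3, and 2 and 2 without line 3, culture 1 or culture 2. The maintenance methyltransferase Dnmt1 did not pass (0.58 ± 0.21, adjusted p = 0.121). Of 37 Hox genes 5 were lower (13.5%, against 10.6% of all genes) and 1 higher (2.7%, against 7.26%). The higher one was Hoxd8 at 6.73, 6.54 and 7.17 against 5.33, 5.56 and 5.53 (1.34 ± 0.17, adjusted p = 0.00624), below the median gene level in both groups. The number of Hox genes lower was 6, 4 and 4 without lines 1, 2 and 3 and 0, 2 and 0 without cultures 1, 2 and 3. The number higher was 3 without line 2 and 2 without line 3.

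The remaining lists are given by their counts, to be set against 7.26% of all genes higher and 10.6% lower. Mesenchymal transcription factors had 4 of 22 members higher (18.2%) and 0 lower, a balance that turned to 1 higher and 4 lower with only genes above the median level. It was 2 and 3 without line 1, 2 and 0 without line 3, and 1 and 0 without any 1 culture, and up to 2 were lower under the other settings. The Hedgehog pathway had 2 of 13 higher (15.4%) and 2 lower (15.4%); the number higher was 1 without line 1 and 0 without any 1 culture or with only genes above the median level. The EGF family had 1 of 12 higher (8.33%) and 2 lower (16.7%), with 0 higher without any 1 culture and 1 lower without culture 1 or 2. Osteoclast regulators had 2 of 14 higher (14.3%) and 1 lower (7.14%), with 1 higher without any 1 culture, 0 lower without culture 1 or 3 and 3 lower with all 9 arrays in the fit.

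Complement genes had 2 of 11 higher (18.2%) and 0 lower, and 1 was lower without line 1. Neural markers had 2 of 10 higher (20%) and 0 lower, with 1 higher without line 1 or culture 2 or 3; no group mean among them exceeded 7.83. The Myc network had 2 of 11 higher (18.2%) and 0 lower, with 1 higher without line 2, line 3 or any 1 culture. Osteoclast markers had 1 of 10 higher and 1 lower (10% each), with 2 higher without line 1 or 2 and 0 lower without line 3 or any 1 culture. In each of tendon and periosteum markers (11 measured), ribosome biogenesis (25) and senescence-associated secreted factors (10), 1 member was higher and 0 lower. Without line 3 the number higher was 2 in the tendon and ribosome lists, and 1 secreted factor was lower; without line 2, 3 secreted factors were higher and 1 ribosome gene lower, and with all 9 arrays in the fit 3 ribosome genes were higher. AP-1 factors (9 measured) had 1 higher and 1 lower, the latter lost without line 1 or culture 3. Reference genes (11) had 1 higher and 1 lower, the latter lost without any 1 array. Chemokines and cytokines had 0 of 21 higher and 1 lower, with 3 higher without line 2, 1 higher without line 3 and 4 lower with all 9 arrays in the fit. The 7 sex-linked transcripts had 0 calls, and 3 were higher without line 1. Matrix remodelling enzymes had 1 of 32 higher and 1 lower, with 7 and 0 without line 2, 0 lower without any 1 culture and 2 lower without line 1.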
